A study of Mus musculus with 8 samples.

Results

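The endosomal recycling genes described here are 40 listed genes: the Rab GTPases of early, recycling and exocytic compartments, the enzyme subunit that prenylates Rab proteins, Rab11 effectors, EHD proteins, the exocyst, retromer with its sorting nexins, the SNARE proteins of recycling and secretion, and the ARF6-binding motor adaptors. A gene entered through a probe set whose only platform symbol was that gene, and where a gene had several, the probe set with the highest mean over the 8 arrays stood for it. On this rule 38 of the 40 genes were measured, of 22180 genes with such a probe set in all, and 37 were bright enough to be tested. Rab4a lay between 4.05 and 4.65 (log2) in all arrays and was not tested, and Rab4b and Rab11fip1 had no probe set of their own.

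Affymetrix Mouse Gene 2.0 ST arrays were used to measure messenger RNA of neutrophils that entered air pouches, cavities raised under the skin of the mice, after injection of the bacterial endotoxin LPS. The conditional knockout (cKO) mice were homozygous for a floxed allele of Arf6, the gene of a small GTPase, and for Cre (flox+/+Cre+/+). The Cre control carried Cre without the floxed allele (flox-/-Cre+/+), and the flox control carried the floxed allele without Cre (flox+/+Cre-/-). There were 3 cKO, 2 Cre control and 3 flox control arrays, each from neutrophils of 5 mice pooled and purified by negative selection, and 98% of the cells carried the neutrophil antigen Ly6G, as the design text states. Neither the promoter that drives Cre nor the age of the mice is given in the sources used here. Every mouse received LPS, so no array shows the unstimulated state.

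Rab GTPases mark endosomal compartments and, when bound to GTP, recruit the tethers, coats and motors that sort cargo between them. They hold to membranes by lipid tails that Rab geranylgeranyl transferase attaches. ARF6 works beside them on the recycling route: in mammalian cells it binds the exocyst and motor adaptors and helps to return internalised cargo to the plasma membrane, the route by which phagocytes also supply membrane to forming phagosomes.

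Arf6 itself read 6.49, 6.06 and 6.20 (log2) in the cKO, 7.79 and 7.86 in the Cre control, and 8.19, 8.20 and 7.68 in the flox control. All 3 cKO arrays lay below all 5 control arrays, as the titles and genotype labels have it. The source field of each sample names another genotype and was not followed. The fold change against both controls was -1.67 (log2, SE 0.15, adjusted p = 0.0122 by limma). The adjusted p was over 0.05 without flox control replicate 2 (0.0779) or either Cre control array (0.153 and 0.182). A second Arf6 probe set differed by -0.15 (SE 0.15), and with both averaged the difference was -0.91 (adjusted p = 0.153). Array medians lay between 5.41 and 5.48, and pairwise correlations across probe sets between 0.977 and 0.992. In the sex-linked transcripts 2 pools stood apart: Xist read 5.46 in flox control replicate 1 against at least 7.84 elsewhere, and Eif2s3y read 4.08 in cKO replicate 1 against at least 8.66 elsewhere. The neutrophil marker list averaged 11.47 to 11.68 in the cKO, 11.37 to 11.41 in the Cre control and 11.61 to 11.83 in the flox control, with 17 of its 18 genes measured and all 17 above the brightness filter. T and NK cell markers averaged 6.29 to 6.44 in the cKO, 6.49 to 6.64 in the Cre control and 6.0 to 6.19 in the flox control. Of the 12 measured, Cd4 and Klrb1c were under the filter. Macrophage and monocyte markers averaged 8.60 to 8.74 in the cKO, 8.87 in both Cre control arrays and 8.43 to 8.77 in the flox control.

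No endosomal recycling gene passed the adjusted threshold of 0.05 in the cKO. Against both controls together, against the Cre control alone and against the flox control alone, 0 of 37 genes passed by limma with Benjamini-Hochberg adjustment, where 0.00714%, 0.0714% and 0.0429% of all 14002 probe sets did. At an unadjusted p under 0.05 the counts were 7 of 37 against both controls (18.9%, with 9.52% of all probe sets; 5 positive, with 5.26%, and 2 negative, with 4.26%), 9 against the Cre control (24.3%, with 13.5%) and 2 against the flox control (5.41%, with 8.26%). Between the control lines it was 8 (21.6%, with 14.7%). The 1 gene that passed did so between the control lines. Rabggta fell in the Cre control relative to the flox control, a comparison in which 0.486% of all probe sets passed.

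The median of the list was not the same against each control. The median log2 fold change of the 37 genes was 0.11 against both controls, 0.17 against the Cre control and 0.00 against the flox control, with 0.01 over all probe sets in each. It was -0.19 in the Cre control relative to the flox control, with 0.00 over all probe sets. Without Cre control replicate 1 it was 0.06 against both controls, 0.09 against the Cre control and -0.06 between the control lines. Without cKO replicate 1 it was 0.07 against both controls, and without cKO replicate 2 it was 0.06 against the Cre control. Above 0 were 25 of 37 genes against both controls (53.4% of all probe sets), 27 against the Cre control (52.0%), 18 against the flox control (52.4%) and 13 between the control lines (49.2%). The comparisons share arrays: the Cre control pools enter the difference of the cKO from the Cre control and, with the opposite sign, the difference between the control lines. The heat map of deviations from each gene's mean shows the same arrays side by side.

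**Figure D1:**
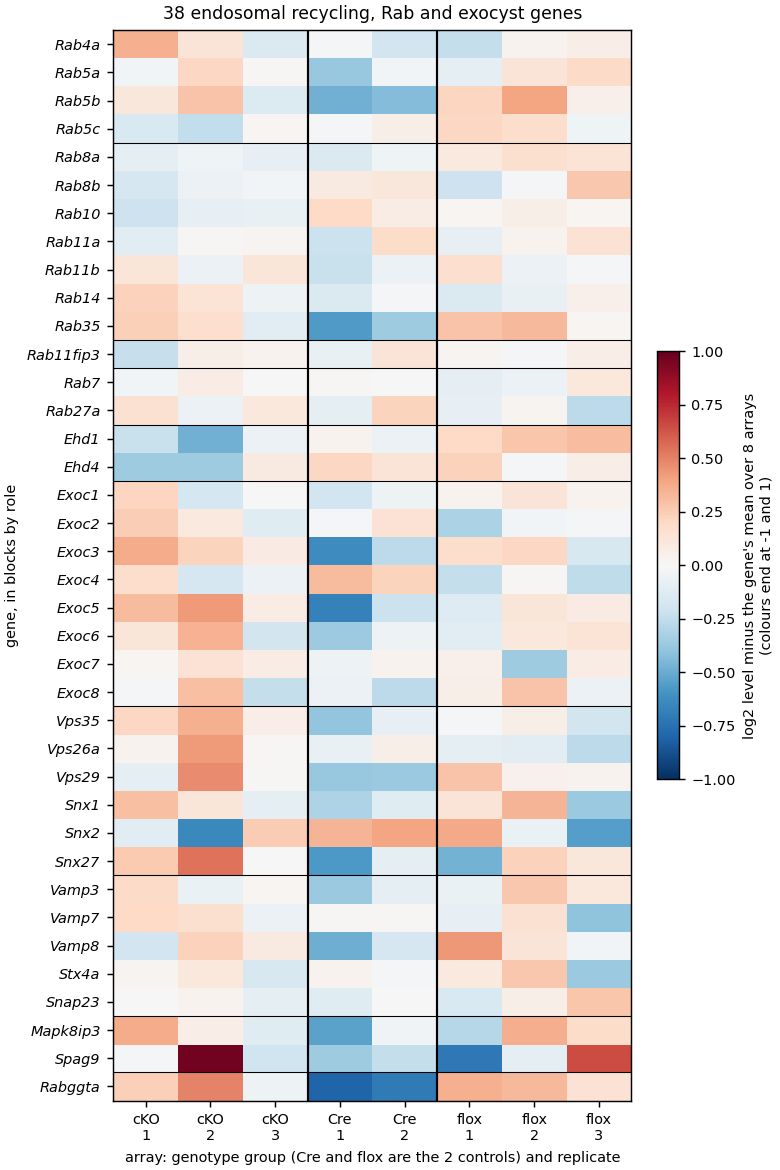
Deviation of each of the 38 measured genes from its own mean over 8 arrays (log2, colour), genes in rows by role and arrays in columns (3 cKO, 2 Cre control, 3 flox control). Rabggta, Rab5b and Rab35 are among the rows that are blue in both Cre control arrays, and the most variable row is Spag9, with a range of 1.68.

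The within-group SD of the 37 genes had a median of 0.168 (log2, range 0.042 to 0.587), against 0.175 over all 14002 probe sets. Rab7 spanned 0.19 over the 8 arrays and Spag9 spanned 1.68. Replicates are pools, so the p-values measure the spread between pools and not between mice.

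Rabggta encodes the alpha subunit of Rab geranylgeranyl transferase, the enzyme that attaches lipid tails to newly made Rab proteins. It read 8.37, 8.63 and 8.08 in the cKO, 7.33 and 7.43 in the Cre control, and 8.49, 8.46 and 8.28 in the flox control. Both Cre control arrays lay below the other 6, while the cKO and flox control arrays overlapped. The Cre control mean was 7.38 ± 0.07 (SD, n = 2) and the flox control mean 8.41 ± 0.11 (SD, n = 3), a 2.05-fold lower signal in the Cre control. The log2 fold change was -1.03 (SE 0.17, 95% interval -1.40 to -0.66, adjusted p = 0.0395 by limma). The call was lost without Cre control replicate 1 (adjusted p = 0.34), Cre control replicate 2 (0.293), flox control replicate 1 (0.0895), flox control replicate 2 (0.121) or cKO replicate 1 (0.082), with fold changes of -0.98, -1.09, -0.99, -1.01 and -1.03 in that order. Without both pools that stood apart in sex-linked transcripts it was also lost, at -0.99 (adjusted p = 0.153).

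In the cKO, Rabggta differed by 0.98 from the Cre control (SE 0.17, adjusted p = 0.081 by limma), by -0.05 from the flox control (SE 0.15, 95% interval -0.38 to 0.28, adjusted p = 0.958) and by 0.46 from both together (SE 0.13, adjusted p = 0.365). The difference from the Cre control passed the threshold with array weights (adjusted p = 0.0182) and without cKO replicate 3 (0.0253). In the Cre control relative to the flox control, where Rabggta was called, 49.2% of all probe sets were above 0. Above 0 there were 9 of 10 tested T and NK cell markers (median 0.65), 10 of 13 macrophage and monocyte markers (median 0.27) and 3 of 17 neutrophil markers (median -0.19). Of these 40, 0 passed the adjusted threshold by limma, with 0.486% of all probe sets. At an unadjusted p under 0.05, 6 T and NK cell and 3 macrophage and monocyte markers were higher (6.85% of all probe sets). At the same p, 7 neutrophil markers were lower (7.86%). Eosinophil, mast cell and basophil markers were above 0 in 5 of 5 (median 0.50) and dendritic cell and class II markers in 7 of 10 (median 0.24). At an unadjusted p under 0.05, 1 of the former was higher, and 4 of the latter were higher and 1 lower. None of them passed the adjusted threshold by limma. B cell markers had a median of 0.05 over 4 genes, erythroid and platelet markers -0.06 over 4, and fibroblast and endothelial markers -0.09 over 8. Marker medians also differed in the cKO against the flox control, where Rabggta differed by -0.05. There they were 0.34 for T and NK cells, 0.06 for macrophages and monocytes, and -0.08 for neutrophils. For eosinophils, mast cells and basophils the median was 0.50, and for dendritic cells and class II 0.28, with 0.01 over all probe sets. The part of these cells in the Rabggta difference was not tested, and in RNA from whole pools fewer cells of a type and less RNA per cell cannot be told apart.

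Both genes next to Rabggta on chromosome 14 also had lower levels in both Cre control arrays than in every flox control array. They were looked up after the Rabggta value was seen, by position in the RefSeq gene order. The gene before it, Tgm1, a transglutaminase, read 10.17, 10.27 and 9.71 in the cKO, 8.32 and 8.94 in the Cre control, and 9.75, 9.92 and 10 in the flox control. Tgm1 fell by 1.26 in the Cre control relative to the flox control (log2, SE 0.22, adjusted p = 0.0456 by limma). The call was lost without Cre control replicate 1 (-0.95, adjusted p = 0.385), Cre control replicate 2 (-1.57, 0.198), any 1 flox control array (0.0621 to 0.132) or cKO replicate 1 (0.0867), and its adjusted p was 0.00774 to 0.385 over 18 alternatives. The gene after it, Dhrs1, a short-chain dehydrogenase, read 8.45 and 8.53 in the Cre control against 9.38, 9.25 and 9.26 in the flox control, a difference of -0.81 (SE 0.17, adjusted p = 0.0706).

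Of the 10 genes on each side of Rabggta, 13 had a tested probe set. In the Cre control relative to the flox control 11 of them were below 0, where 49.2% of all probe sets were above 0. An unadjusted p under 0.05 was reached by 4 (14.7% of all probe sets), and 1 was past the adjusted threshold (0.486%). Nop9, next but 1 after Rabggta, differed by 0.00 (SE 0.15). In the cKO against the flox control Tgm1 differed by 0.16 (SE 0.19) and Dhrs1 by 0.02 (SE 0.15). The larger differences there were 0.78 for Tinf2 (SE 0.43), 0.28 for Nop9 (SE 0.13) and -0.26 for Irf9 (SE 0.10). Within 5 genes on each side, the median difference between the control lines was -0.81 around Rabggta over 7 tested genes, -0.10 around Rab5b over 9, and -0.14 around Rab35 over 8. Of these neighbours, 4, 4 and 1 had an unadjusted p under 0.05, with 14.7% of all probe sets. Around Exoc3, Exoc4, Vps29, Vamp8 and Exoc5 it was 1 of 5, 0 of 4, 0 of 5, 3 of 9 and 2 of 5.

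**Figure D2:**
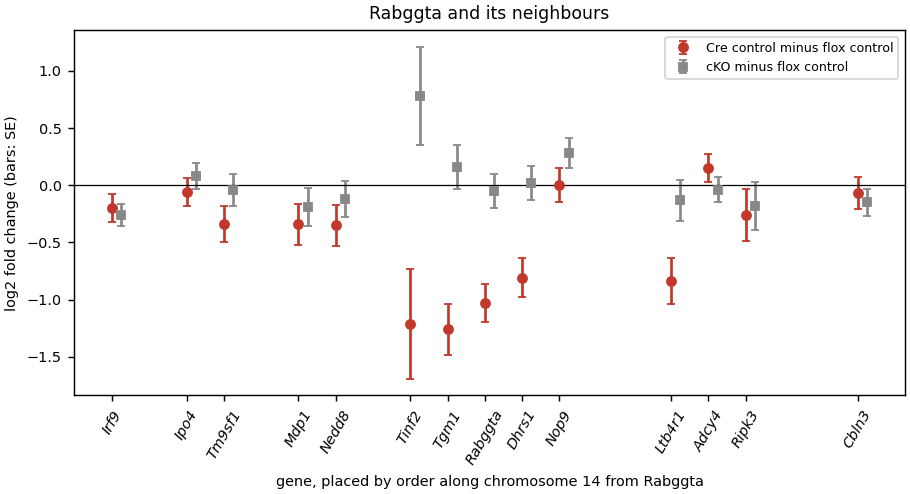
Log2 fold change (points, bars are SE) of Rabggta and the 13 tested genes among its 10 neighbours on each side, placed by gene order, for the Cre control relative to the flox control (red circles) and the cKO against the flox control (grey squares). In the Cre control, Tinf2, Tgm1, Rabggta, Dhrs1 and Ltb4r1 lie at -0.81 or below, and Nop9 between them at 0.00.

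Rabggta, Rab5b and Rab35 had the 3 smallest p-values of the list between the control lines, and in all 3 both Cre control arrays lay below every other array. Their promoter windows are printed for that reason, from the RefSeq table of GRCm38.p6, 250 bases before to 50 bases after an annotated start, 5′ to 3′ on the gene's strand. Rabggta has 3 windows in that table, and the window with the most CpG is shown. Capitals mark 4 motifs searched on both strands: GGGCGG (the GC box), CCAAT (bound by NF-Y), CCGGAAG (an ETS-type motif) and CACGTG (an E-box).
Rabggta, chr14:55721874-55722173, minus strand: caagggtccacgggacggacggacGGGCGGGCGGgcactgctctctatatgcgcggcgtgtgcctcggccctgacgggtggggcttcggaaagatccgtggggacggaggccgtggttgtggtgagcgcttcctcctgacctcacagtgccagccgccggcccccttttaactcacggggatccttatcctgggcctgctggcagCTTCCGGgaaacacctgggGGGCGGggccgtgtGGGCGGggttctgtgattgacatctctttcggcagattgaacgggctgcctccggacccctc
Rab5b, chr10:128696219-128696518, minus strand: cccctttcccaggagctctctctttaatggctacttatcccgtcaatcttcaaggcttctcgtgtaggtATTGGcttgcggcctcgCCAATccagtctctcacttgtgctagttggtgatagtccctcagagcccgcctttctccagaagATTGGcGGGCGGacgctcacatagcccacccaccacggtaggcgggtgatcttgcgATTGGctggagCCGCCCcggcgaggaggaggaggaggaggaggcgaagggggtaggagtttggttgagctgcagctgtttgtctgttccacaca
Rab35, chr5:115631737-115632036, plus strand: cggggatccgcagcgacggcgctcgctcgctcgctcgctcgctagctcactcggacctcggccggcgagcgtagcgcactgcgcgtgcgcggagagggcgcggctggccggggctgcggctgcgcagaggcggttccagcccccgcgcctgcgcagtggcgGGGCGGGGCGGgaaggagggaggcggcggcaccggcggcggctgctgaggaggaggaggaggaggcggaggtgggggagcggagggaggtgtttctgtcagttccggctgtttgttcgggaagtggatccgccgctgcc

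The Rabggta window held 4 GGGCGG and 1 CCGGAAG, that of Rab5b 2 GGGCGG and 4 CCAAT, and that of Rab35 2 GGGCGG. Some matches overlap, so that 29 bases are in capitals for Rabggta and 11 for Rab35, where the motif lengths sum to 31 and 12. Of all 32851 windows, 35.7% held GGGCGG, 37.4% CCAAT, 8.86% CCGGAAG and 7.15% CACGTG. Of 31 listed genes matched to the table, GGGCGG was found in a window of 24 (77.4%), CCAAT of 19 (61.3%), CCGGAAG of 8 (25.8%) and CACGTG of 4 (12.9%), against 38.2%, 41.1%, 9.93% and 8.09% of all 27025 genes. GGGCGG was in all 3 printed windows, CCAAT and CCGGAAG in 1 each and CACGTG in 0. The 27025 genes were not limited to those bright enough to be tested on the arrays, as nearly all measured members were. The shares are therefore not a matched comparison. A match is a run of letters and not a measured binding site.

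The Rab5 proteins drive fusion of early endosomes. Rab5b read 8.28, 8.45 and 8.03 in the cKO, 7.69 and 7.73 in the Cre control, and 8.38, 8.56 and 8.22 in the flox control. Its Cre control arrays lay below all others and the cKO and flox control arrays overlapped. The differences were -0.68 in the Cre control relative to the flox control (SE 0.16, adjusted p = 0.106 by limma) and 0.54 in the cKO against the Cre control (SE 0.16, adjusted p = 0.217).

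The other Rab5 paralogues did not separate the groups in this way. Rab5a read 9.64, 9.88 and 9.68 in the cKO, 9.29 and 9.64 in the Cre control, and 9.57, 9.80 and 9.86 in the flox control. Rab5c read 10.62, 10.53 and 10.79 in the cKO, 10.75 and 10.83 in the Cre control, and 10.98, 10.95 and 10.73 in the flox control. In both genes the groups overlapped, and the cKO differed from the flox control by -0.01 for Rab5a (SE 0.14) and by -0.24 for Rab5c (SE 0.12, adjusted p = 0.656 by limma).

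Rab35, which in mammalian cells works on the fast recycling route in opposition to ARF6, read 7.95, 7.88 and 7.60 in the cKO, 7.15 and 7.36 in the Cre control, and 8.0, 8.04 and 7.73 in the flox control. Here too the Cre control arrays were the lowest and the other groups overlapped. The cKO differed from the Cre control by 0.55 (SE 0.16, adjusted p = 0.217 by limma) and from the flox control by -0.11 (SE 0.14, 95% interval -0.43 to 0.20). Between the control lines the difference was -0.66 (SE 0.16, adjusted p = 0.107). With array weights, Rab5b and Rab35 passed between the control lines, at adjusted p = 0.0135 and 0.0177.

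Of the 7 Rab GTPases of the recycling endosome and of exocytosis tested, Rab35 among them, 3 were above 0 in the cKO against both controls (median -0.03, range -0.20 to 0.22, with 53.4% of all probe sets above 0). Against the flox control 2 were above 0 (median -0.10, range -0.21 to 0.16, with 52.4%) and against the Cre control 4 (median 0.02, range -0.26 to 0.55, with 52.0%). An unadjusted p under 0.05 was reached by 0, 0 and 1 of them (9.52%, 8.26% and 13.5% of all probe sets), the 1 being Rab35. Rab11a and Rab11b, the GTPases of the recycling endosome, differed by -0.03 (SE 0.12) and 0.11 (SE 0.11) from both controls. A second Rab11b probe set gave 0.11 (SE 0.10) there, and -0.27 (SE 0.12, adjusted p = 0.338 by limma) in the Cre control relative to the flox control, where the first gave -0.17 (SE 0.13). Rab8b, Rab14 and Rab8a, which serve exocytic and recycling carriers, differed by -0.14 (SE 0.12), 0.17 (SE 0.11) and -0.09 (SE 0.09).

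Rab10 and Rab8a varied little within groups (SD 0.063 and 0.042), and a small offset separated some of their arrays. Rab10, a GTPase of exocytic and tubular recycling carriers, lay at 9.56 to 9.69 in the cKO, against 9.84 to 9.96 in the Cre control and 9.78 to 9.82 in the flox control. The cKO arrays were below every control array, with a difference of -0.20 from both controls (SE 0.09, adjusted p = 0.55 by limma). Rab8a lay at 11.03 to 11.08 in the cKO, against 10.98 to 11.08 in the Cre control and 11.22 to 11.28 in the flox control, so that the cKO arrays were below those of the flox control and among those of the Cre control. Its second probe set had a difference from the flox control of -0.39 (SE 0.22), where the first had -0.21 (SE 0.10).

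Over all 37 genes, the cKO arrays and the 5 control arrays did not overlap for 3 genes (8.11%, with 4.36% of all probe sets), Vps35 above (2.11% of all probe sets) and Ehd1 and Rab10 below (2.25%). Against the flox control alone the count was 5 (12.2% of all probe sets), with Vps26a and Vps35 above (5.93%) and Ehd1, Rab8a and Rab10 below (6.31%). It was 17 against the Cre control (34.4%) and 15 in the Cre control relative to the flox control (32.7%), where 2 arrays enter on a side and such gaps are frequent in all probe sets.

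**Figure D3:**
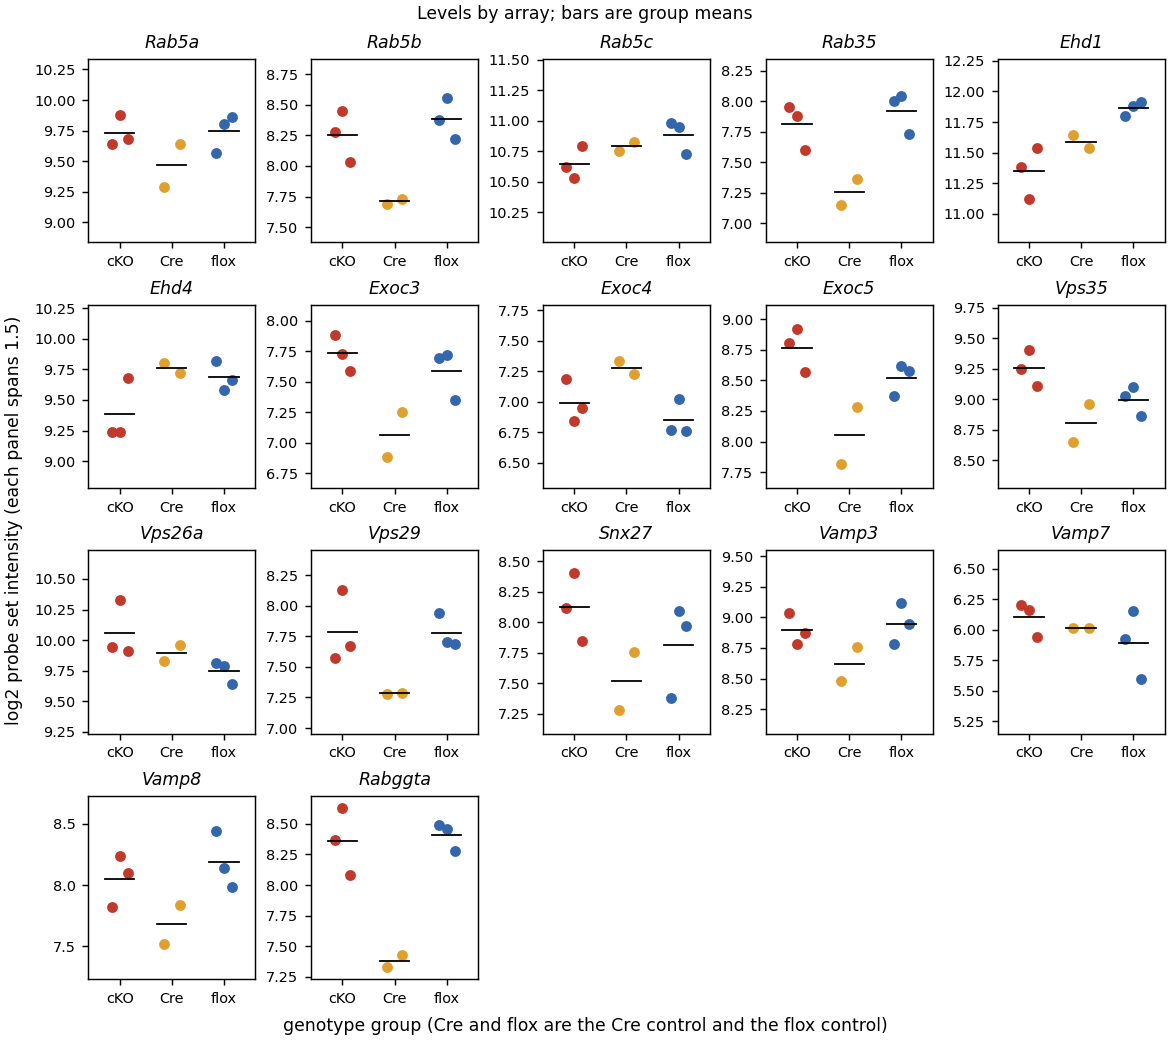
Log2 probe set intensity of 17 genes in each array (points) with group means (bars), for cKO, Cre control and flox control; each panel spans 1.5 log2 units. Genes are those with an unadjusted p under 0.05 in any comparison and their listed paralogues. The Cre control points are lowest for Rabggta, Rab5b, Rab35, Exoc3, Exoc5, Vps29 and Vamp3, and the cKO points lowest for Ehd1.

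Rab7, the GTPase of late endosomes, and Rab27a, which in neutrophils serves granule exocytosis, had overlapping groups in every comparison. Rab7 lay at 13.36 to 13.46 in the cKO, 13.38 to 13.40 in the Cre control and 13.30 to 13.49 in the flox control. Rab27a lay at 10.87 to 11.08 in the cKO, 10.83 to 11.15 in the Cre control and 10.67 to 10.96 in the flox control. The cKO differed from both controls by 0.02 for Rab7 (95% interval -0.20 to 0.24) and 0.09 for Rab27a (-0.18 to 0.36). Rab11fip3, an effector that binds both Rab11 and ARF6, differed by -0.07 (95% interval -0.32 to 0.17).

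EHD proteins are ATPases that remodel endosomal tubules, and EHD1 acts in the exit of cargo from the recycling endosome. Ehd1 read 11.38, 11.12 and 11.54 in the cKO, 11.64 and 11.54 in the Cre control, and 11.80, 11.88 and 11.91 in the flox control. The cKO arrays were the lowest, although cKO replicate 3 and Cre control replicate 2 differed only in the third decimal, and the Cre control lay between. Ehd1 had the smallest p of the list in the cKO against the flox control, with a difference of -0.51 (SE 0.13, 95% interval -0.80 to -0.23, adjusted p = 0.348 by limma).

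Against both controls Ehd1 differed by -0.38 (SE 0.12, adjusted p = 0.377 by limma), and against the Cre control by -0.24 (SE 0.14, adjusted p = 0.517). A second Ehd1 probe set, with a mean of 8.37 in the cKO, 8.70 in the Cre control and 9.12 in the flox control, had differences of -0.54 (SE 0.17) from both controls and -0.76 (SE 0.19) from the flox control. Its adjusted p-values by limma were 0.384 and 0.348, and both had an unadjusted p under 0.05.

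Ehd4, a paralogue found on early endosomes, read 9.24, 9.24 and 9.68 in the cKO, 9.80 and 9.72 in the Cre control, and 9.82, 9.58 and 9.66 in the flox control. Of its cKO arrays 2 were below all controls, and cKO replicate 3 lay among the flox controls. The difference from both controls was -0.34 (SE 0.13, adjusted p = 0.454 by limma). Ehd1 and Ehd4 were the only 2 genes of the list with a negative difference and an unadjusted p under 0.05 against both controls, 5.41% of the list, with 4.26% of all probe sets.

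The exocyst is a complex of 8 subunits that tethers secretory and recycling vesicles to the plasma membrane, and all 8 genes were tested. Against both controls 7 of 8 were above 0 (53.4% of all probe sets; median 0.11, range -0.07 to 0.48), against the flox control 6 (52.4%; median 0.14, range -0.08 to 0.24) and against the Cre control 7 (52.0%; median 0.16, range -0.28 to 0.72). An unadjusted p under 0.05 was reached by 2 of them against both controls (9.52% of all probe sets) and by 2 against the Cre control (13.5%), Exoc5 and Exoc3 each time, and by 0 against the flox control (8.26%).

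Exoc5 (Sec10), the subunit through which ARF6 binds the complex in mammalian cells, read 8.81, 8.92 and 8.57 in the cKO, 7.82 and 8.28 in the Cre control, and 8.37, 8.62 and 8.58 in the flox control. Both Cre control arrays were below all others, replicate 1 the most, and the cKO and flox control arrays overlapped. Exoc5 differed by 0.48 from both controls (SE 0.14, adjusted p = 0.365 by limma), by 0.72 from the Cre control (SE 0.17, adjusted p = 0.153) and by 0.24 from the flox control (SE 0.15, adjusted p = 0.722). Averaged with its second, dim probe set the difference from both controls was 0.16 (SE 0.14, adjusted p = 0.784).

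Exoc3 (Sec6) read 7.88, 7.73 and 7.59 in the cKO, 6.88 and 7.25 in the Cre control, and 7.69, 7.72 and 7.35 in the flox control. Its Cre control arrays were the lowest and the cKO and flox control arrays overlapped. The differences were 0.66 in the cKO against the Cre control (SE 0.17, adjusted p = 0.175 by limma) and -0.52 in the Cre control relative to the flox control (SE 0.17, adjusted p = 0.197). With array weights the second passed, at an adjusted p of 0.0458, and without Cre control replicate 1 it was -0.33 (adjusted p = 0.74).

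Exoc4 (Sec8) ran the other way, reading 7.19, 6.84 and 6.95 in the cKO, 7.33 and 7.23 in the Cre control, and 6.77, 7.02 and 6.76 in the flox control. Its Cre control arrays were the highest. The difference was 0.43 in the Cre control relative to the flox control (SE 0.15, adjusted p = 0.215 by limma) and -0.28 in the cKO against the Cre control (SE 0.15, adjusted p = 0.443). Exoc4 was the 1 gene of the list with a positive difference and an unadjusted p under 0.05 between the control lines (6.85% of all probe sets), where 7 genes had a negative one (7.86%).

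Among the other subunits, Exoc1 (Sec3) and Exoc7 (Exo70) bind phosphoinositides of the plasma membrane, Exoc2 (Sec5) and Exoc8 (Exo84) bind Ral GTPases, and Exoc6 (Sec15) binds Rab11. These 5 differed from both controls by 0.04 for Exoc1, 0.10 for Exoc2, 0.17 for Exoc6, 0.12 for Exoc7 and 0.05 for Exoc8, with SE between 0.11 and 0.14 and the cKO arrays overlapping the control arrays in each. Exoc8 and Exoc7 were dim, at 5.15 to 5.71 and 5.76 to 6.26 over the 8 arrays, near the filter of 5.45.

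**Figure D4:**
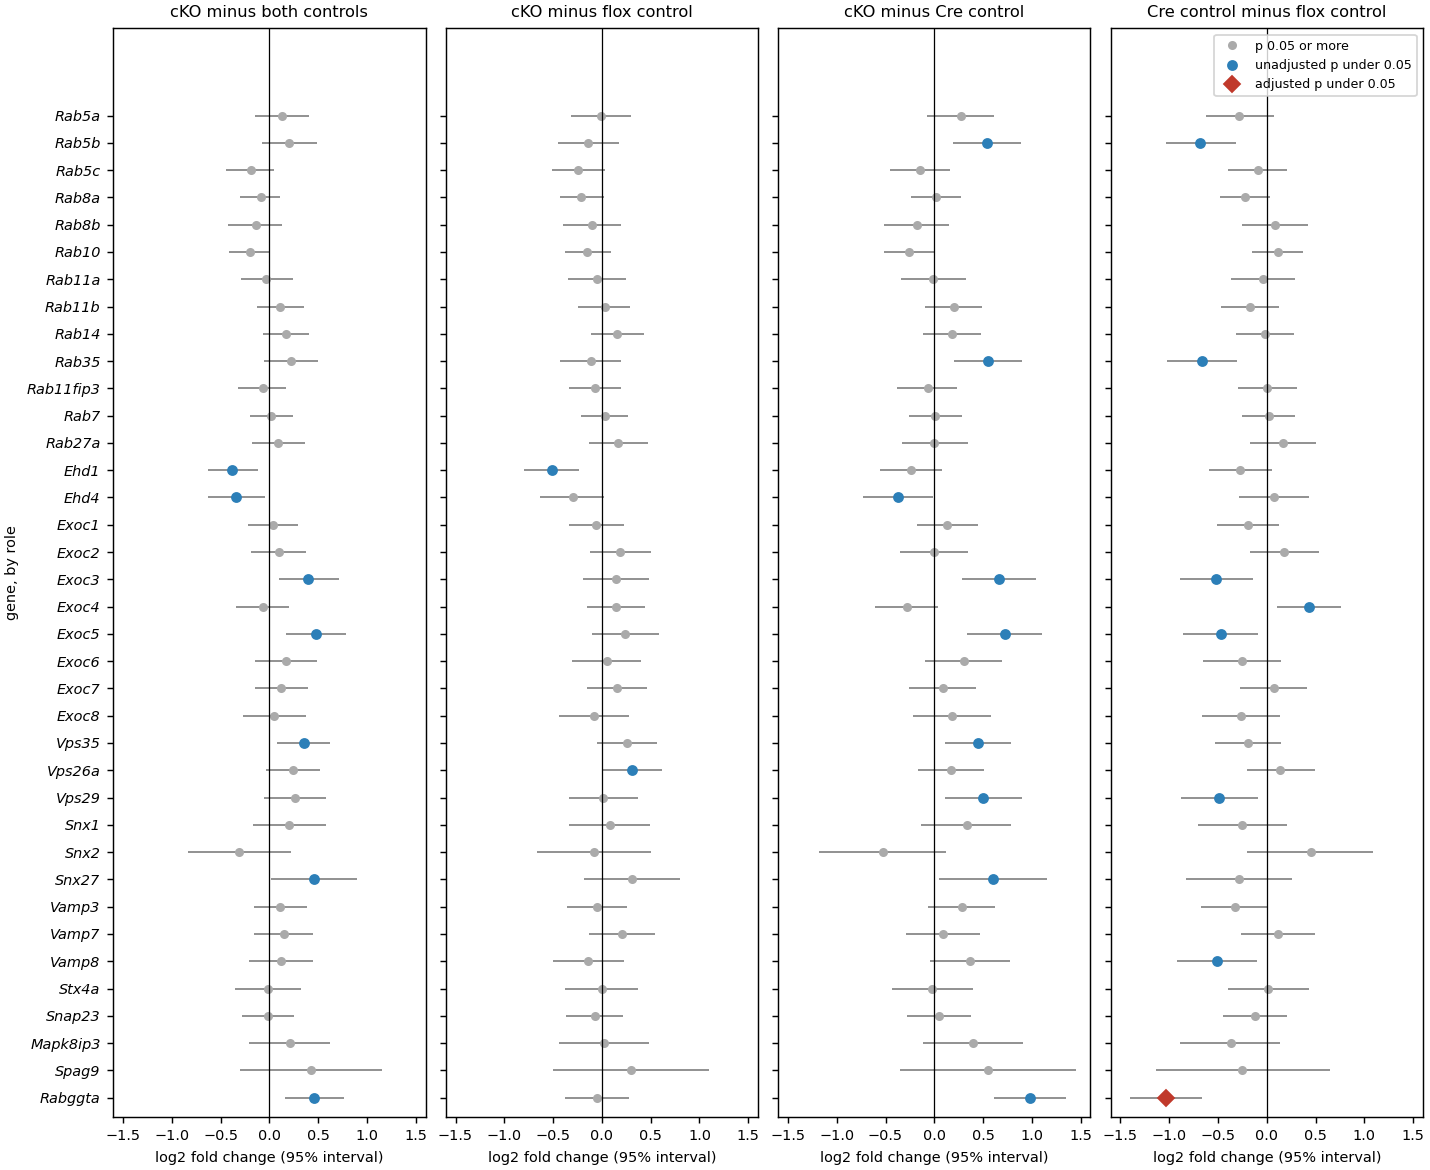
Log2 fold change with 95% interval of the 37 tested genes in 4 comparisons; grey points have p of 0.05 or more, blue points an unadjusted p under 0.05, and the red diamond an adjusted p under 0.05. The diamond is Rabggta at -1.03 in the Cre control relative to the flox control.

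Retromer is a coat of endosomes made of Vps35, Vps26 and Vps29, which with sorting nexins returns receptors to the Golgi and the plasma membrane. Of the 6 genes of this group 5 were above 0 in the cKO against both controls (53.4% of all probe sets; median 0.25), against the Cre control (52.0%; median 0.39) and against the flox control (52.4%; median 0.17), the exception each time being Snx2. None passed the adjusted threshold.

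Vps35, the scaffold of retromer, read 9.25, 9.40 and 9.11 in the cKO, 8.65 and 8.96 in the Cre control, and 9.03, 9.10 and 8.86 in the flox control. All cKO arrays were above all control arrays, by 0.01 at the closest. The difference was 0.35 from both controls (SE 0.12, adjusted p = 0.422 by limma), 0.45 from the Cre control (SE 0.15, adjusted p = 0.254) and 0.26 from the flox control (SE 0.14, adjusted p = 0.674). Without Cre control replicate 1 the difference from the Cre control was 0.29 (adjusted p = 0.918).

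Vps26a, the arrestin-like subunit, read 9.94, 10.33 and 9.91 in the cKO, 9.83 and 9.96 in the Cre control, and 9.81, 9.79 and 9.64 in the flox control. The cKO was above the flox control and overlapped the Cre control, and cKO replicate 2 was the highest array. The difference from the flox control was 0.31 (SE 0.14, adjusted p = 0.596 by limma), and 0.18 without that array (adjusted p = 0.873).

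Vps29 read 7.57, 8.13 and 7.67 in the cKO, 7.28 and 7.29 in the Cre control, and 7.94, 7.70 and 7.69 in the flox control. The Cre control arrays were the lowest, with differences of 0.50 in the cKO against the Cre control (SE 0.18, adjusted p = 0.263 by limma), 0.01 in the cKO against the flox control (SE 0.16, 95% interval -0.34 to 0.37) and -0.49 in the Cre control relative to the flox control (SE 0.18, adjusted p = 0.236). Without cKO replicate 2 the difference from the Cre control was 0.33 (adjusted p = 0.524). The cKO mean was the highest in all 3 subunits, in Vps29 by little, at 7.79 against 7.77 in the flox control. The Cre control mean was below that of the flox control in Vps35 and Vps29 and above it in Vps26a.

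Snx27, a sorting nexin that carries cargo with a PDZ-binding tail to the plasma membrane, read 8.12, 8.40 and 7.85 in the cKO, 7.28 and 7.76 in the Cre control, and 7.38, 8.09 and 7.97 in the flox control. The cKO was above the Cre control and overlapped the flox control, where replicate 1 was the lowest. The differences were 0.46 from both controls (SE 0.20, adjusted p = 0.513 by limma) and 0.60 from the Cre control (SE 0.24, adjusted p = 0.326). Without Cre control replicate 1 the difference from the Cre control was 0.36 (adjusted p = 0.963).

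Snx1 and Snx2, the membrane-bending partners of retromer, had wide spreads. Snx2 lay at 9.05 to 9.95 in the cKO, 10.03 to 10.09 in the Cre control and 9.14 to 10.07 in the flox control, with a difference of -0.31 from both controls (SE 0.23, 95% interval -0.83 to 0.22). Snx1 lay at 7.64 to 8.03 in the cKO, 7.42 to 7.61 in the Cre control and 7.36 to 8.07 in the flox control, with a difference of 0.20 (SE 0.17).

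SNARE proteins drive the fusion of vesicles with their target membrane. In the cKO 3 of 5 were above 0 against both controls (53.4% of all probe sets; median 0.11), 4 of 5 against the Cre control (52.0%) and 1 of 5 against the flox control (52.4%; median -0.05), and none had an unadjusted p under 0.05. Vamp8, a vesicle SNARE of endosomes and secretory granules, read 7.82, 8.24 and 8.10 in the cKO, 7.52 and 7.84 in the Cre control, and 8.44, 8.14 and 7.98 in the flox control. The Cre control was below the flox control, and the cKO overlapped both. Between the control lines Vamp8 differed by -0.51 (SE 0.18, adjusted p = 0.238 by limma).

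Its paralogues did not reach that p. Vamp3, a vesicle SNARE of recycling endosomes, read 9.04, 8.78 and 8.87 in the cKO, 8.48 and 8.76 in the Cre control, and 8.78, 9.12 and 8.95 in the flox control. Vamp7, of late endosomes and lysosomes, read 6.20, 6.16 and 5.94 in the cKO, 6.01 in both Cre controls, and 5.92, 6.15 and 5.60 in the flox control. Vamp3 was lowest in the Cre control, at a difference from the flox control of -0.33 (SE 0.15, adjusted p = 0.363 by limma), and the groups of Vamp7 overlapped. The plasma membrane partners Stx4a and Snap23 differed from both controls by -0.01 each, with 95% intervals of -0.35 to 0.32 and -0.28 to 0.25.

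Mapk8ip3 (JIP3) and Spag9 (JIP4) are adaptors that bind ARF6 and link recycling vesicles to kinesin and dynein motors. Spag9 read 10.19, 11.16 and 10 in the cKO, 9.84 and 9.96 in the Cre control, and 9.48, 10.11 and 10.85 in the flox control. Its range lay within groups: cKO replicate 2 and flox control replicate 3 were the high arrays, flox control replicate 1 the low one. The difference from both controls was 0.43 (SE 0.32, 95% interval -0.30 to 1.15). Mapk8ip3 lay at 7.68 to 8.17 in the cKO, 7.26 to 7.76 in the Cre control and 7.51 to 8.16 in the flox control, with a difference of 0.21 (SE 0.18).

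Other genes of the same pathways, in lists drawn up beside the members, gave 1 call. Of 29 other Rab GTPases tested, 0 passed the adjusted threshold by limma in any of the 4 comparisons. At an unadjusted p under 0.05, 0 had a positive and 1 a negative difference in the cKO against both controls (5.26% and 4.26% of all probe sets), and 1 positive and 5 negative in the Cre control relative to the flox control (6.85% and 7.86%). Rab36 was the 1 gene against both controls, at -0.28 (SE 0.10, adjusted p = 0.43). Between the control lines Rab32, a GTPase of lysosome-related organelles, had -0.48 (SE 0.12, adjusted p = 0.111). In the cKO against the flox control 2 were positive and 5 negative at that p (8.26% of all probe sets in either direction). The arrays did not overlap there for 2 above and 6 below (5.93% and 6.31%). Rab18 differed by 0.45 (SE 0.18), Rab31 by -0.31 (SE 0.11) and Rab20 by -0.33 (SE 0.12). Against the Cre control 2 were positive and 2 negative at that p (13.5% in either direction).

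Of 54 Rab exchange factors, GTPase-activating proteins and chaperones, 0 passed by limma, with 7 positive and 2 negative differences at an unadjusted p under 0.05 in the cKO against both controls (5.26% and 4.26% of all probe sets). Rab3gap2, a subunit of a Rab3 GTPase-activating and Rab18 exchange complex, differed by 0.67 (SE 0.18, adjusted p = 0.343). Dennd1a, an exchange factor for Rab35, differed by 0.83 in the Cre control relative to the flox control (SE 0.15, adjusted p = 0.0535) and by -0.81 in the cKO against the Cre control (SE 0.15, adjusted p = 0.118), while Rab35 itself had -0.66 and 0.55 in these comparisons.

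Of 31 Rab and recycling effectors, 0 passed by limma, with 7 positive and 1 negative at an unadjusted p under 0.05 in the cKO against both controls (5.26% and 4.26% of all probe sets). Plekhm1, a Rab7 effector, read 10.12, 10.25 and 9.97 in the cKO, 9.5 and 9.82 in the Cre control, and 9.56, 9.59 and 9.34 in the flox control. All its cKO arrays were above all control arrays, with a difference of 0.54 (SE 0.12, adjusted p = 0.293 by limma). Acap1, a GTPase-activating protein for ARF6, read 9.28, 9.35 and 9.23 in the cKO, 8.23 and 8.67 in the Cre control, and 9.14, 9.38 and 9.43 in the flox control, so that the Cre control was lowest, at -0.87 against the flox control (SE 0.16, adjusted p = 0.0524).

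The remaining exocyst, retromer and SNARE lists gave the 1 call. Of 8 other exocyst genes, Ralb, a GTPase that binds the exocyst, differed by 0.60 in the cKO against the Cre control (SE 0.16, adjusted p = 0.20 by limma). Of 41 other retromer, retriever, WASH and sorting nexin genes, 3 were positive and 3 negative at an unadjusted p under 0.05 against both controls (5.26% and 4.26% of all probe sets). Against the Cre control it was 9 and 4 (13.5% in either direction), and against the flox control 0 and 1 (8.26%). Vps26c, a retriever subunit, differed by 0.53 in the cKO against both controls (SE 0.14, adjusted p = 0.343). Its difference was 0.80 from the Cre control (SE 0.18) and -0.55 in the Cre control relative to the flox control (SE 0.18). Snx20 differed by -0.52 from both controls (SE 0.13, adjusted p = 0.319), with its cKO arrays below all controls. Stxbp5 (tomosyn), a syntaxin-binding inhibitor of SNARE assembly, read 9.73, 9.93 and 9.82 in the cKO, 9.90 and 9.88 in the Cre control, and 9.22, 9.11 and 9.03 in the flox control. It rose by 0.77 in the Cre control relative to the flox control (SE 0.12, adjusted p = 0.0395 by limma). The call was lost without either Cre control array (0.338 and 0.316), any 1 flox control array (0.0535 to 0.121) or cKO replicate 1 (0.0755), and its adjusted p was 0.00486 to 0.338 over 18 alternatives. In the cKO against the flox control its difference was 0.71 (SE 0.11, adjusted p = 0.132). It was the only 1 of 35 SNARE and SNARE-binding genes past the threshold in any comparison.

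**Figure D5:**
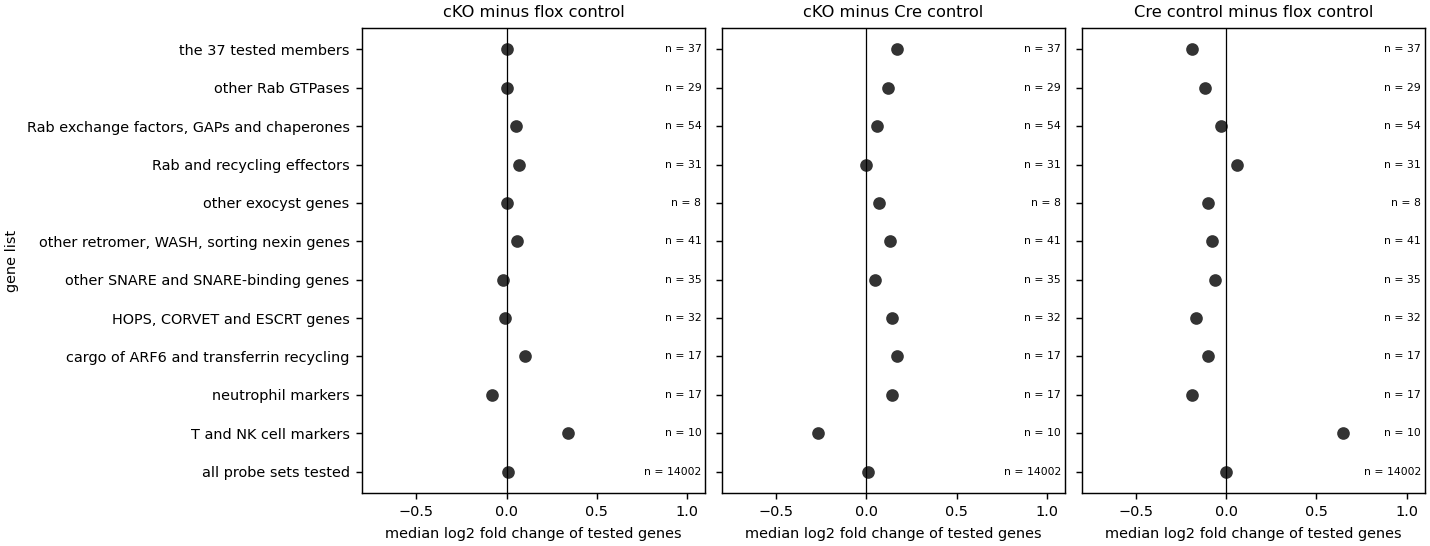
Median log2 fold change (points) of the tested genes of each list, with their number, in the cKO against the flox control, the cKO against the Cre control and the Cre control against the flox control. The endosomal recycling genes lie at 0.00, 0.17 and -0.19 and all probe sets at 0.01, 0.01 and 0.00; T and NK cell markers lie at 0.65 and neutrophil markers at -0.19 in the right panel.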

How the data were processed

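The authors deposited log2 intensities per probe set, background-subtracted and normalized by Robust Multiarray Analysis with the Affymetrix Expression Console, per the labels and design text. The sources used here give neither software version nor genome build. No further scaling was applied. Groups followed titles and genotype labels. The design text states 3 pools per genotype. All 8 arrays of the series were used, 2 of them from the Cre control, and no further Cre control pool was among them. Precision is limited by the number of arrays.

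Of 34472 probe sets, 23521 had 1 gene symbol, 1814 several and 9137 none. Those of 1 symbol that exceeded 5.45 (log2, the median over the whole table) in 2 or more arrays, 14002 probe sets from 13296 genes, were fitted with limma 3.58.1 in R 4.3.3 as 3 groups in 1 fit (residual degrees of freedom 5, prior 4.69), tested two-sided, with Benjamini-Hochberg adjustment over all 14002 probe sets and a threshold of 0.05. In the comparison with both controls the 2 control groups weigh alike. Differences and SE are on the log2 scale. The fit was tested on simulated data.

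The members, gene lists and tests were chosen with earlier results of these data known. Every member is named. Values per array are given for members with an unadjusted p under 0.05 in a comparison and for their listed paralogues. From other lists, genes past the adjusted threshold, or otherwise those with the smallest p under 0.05, are named, some by their differences alone. Alternatives were other filters, scalings, variance models, array weights, the mean of a gene's probe sets, a fit of the compared groups alone, and leaving out arrays. Promoter windows came from RefSeq (GRCm38.p6), where the gene IDs of all 38 members were found and 31 had a window.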

Additional observations from a re-analysis of the deposited data

How the results depend on the processing

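Under the alternatives, 26 member values with an unadjusted p under 0.05 were recomputed 461 times, with 0 reversals of sign and 17 values past the adjusted threshold. The 26 values were picked by their p in the same arrays that the alternatives reuse. A reversal was therefore unlikely from the outset, and the count of reversals is no independent check. Between the control lines, the count of members past the threshold was 1 as reported, 4 with array weights (Rabggta, Rab5b, Rab35 and Exoc3, where 819 probe sets passed in all, against 68), 0 to 1 when an array was left out, and 0 without both pools distinct in sex-linked transcripts. Rabggta passed under 12 of 18 alternatives there, with adjusted p between 0.00458 and 0.34. In the cKO against the Cre control the count was 1 with array weights (145 probe sets in all, against 10) and 0 to 1 when an array was left out. It was 0 under every alternative for the cKO against both controls and against the flox control. The median over members, leaving out an array at a time, lay between 0.06 and 0.15 against both controls, 0.06 and 0.20 against the Cre control, -0.05 and 0.04 against the flox control, and -0.24 and -0.06 between the control lines. Leaving out Cre control replicate 1 gave 0.06, 0.09 and -0.06 against both controls, against the Cre control and between the control lines, and leaving out cKO replicate 2 gave 0.06 against the Cre control. With array weights the median against the flox control was -0.07. The Arf6 difference from both controls was -0.91 (adjusted p = 0.153) when both its probe sets were averaged, -1.75 (0.0816) without the 2 distinct pools, and -1.79 to -1.58 leaving out an array at a time, where it was not past the threshold without flox control replicate 2 (0.0779) or either Cre control (0.153 and 0.182). The average includes the second Arf6 probe set, which differed by -0.15 (SE 0.15), and fits with arrays left out rest on fewer arrays. The cause of these losses was not tested. The alternatives for Tgm1 and Stxbp5, chosen after seeing the data, left 7 and 10 of 18 values past the threshold, with 0 reversals, and the same limit holds for them. Quantile scaling and median centring moved the median of all probe sets by at most 0.048. The fit of the compared groups alone gives no value for the cKO against both controls. No paired analysis was possible because the labels give running sample numbers and no replicate number shared between genotypes. With 2 Cre control arrays, and 5 residual degrees of freedom, differences of the size seen in most members lie within the intervals.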

Other observations

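Genes that act after or through the recycling route, in lists drawn up beside the members, had 0 calls by limma. Of 32 tested genes of HOPS and CORVET, the tethers of late and early endosomes, and of ESCRT, which sorts cargo into multivesicular bodies, 5 had a positive and 0 a negative difference at an unadjusted p under 0.05 in the cKO against both controls (5.26% and 4.26% of all probe sets). Vps18, a shared core subunit of HOPS and CORVET, read 7.79, 8.35 and 7.83 in the cKO, 7.08 and 7.12 in the Cre control, and 7.49, 7.63 and 7.29 in the flox control. All cKO arrays were above all control arrays, with a difference of 0.70 from both controls (SE 0.15, adjusted p = 0.245). Vps39, a HOPS subunit, differed by 0.66 from the flox control (SE 0.18, adjusted p = 0.37), and Mvb12a, an ESCRT-I subunit, by -0.71 in the Cre control relative to the flox control (SE 0.17, adjusted p = 0.108).

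Of 17 tested genes for cargo of the ARF6 and transferrin recycling routes, 15 were above 0 in the cKO against both controls (median 0.13, with 0.01 over all probe sets), 13 against the Cre control (median 0.17) and 13 against the flox control (median 0.10). Of all probe sets 53.4%, 52.0% and 52.4% were above 0 in that order. Slc3a2, the heavy chain of CD98 and a cargo of ARF6 endosomes in mammalian cells, read 11.76, 12.34 and 11.71 in the cKO, 11.27 and 11.42 in the Cre control, and 11.48, 11.57 and 11.59 in the flox control. Its cKO arrays were above all control arrays, with a difference of 0.49 (SE 0.15, adjusted p = 0.369 by limma). Tfrc, the transferrin receptor, differed by 0.34 from both controls (SE 0.15, adjusted p = 0.504).

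Among SNAREs outside the members, Stx6, of the trans-Golgi and endosomes, read 9.84, 10.26 and 10.42 in the cKO, 10.79 and 10.47 in the Cre control, and 10.75, 10.75 and 11.02 in the flox control. The cKO arrays were below all control arrays, with a difference of -0.56 from both controls (SE 0.15, adjusted p = 0.343 by limma).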
